A study of Drosophila melanogaster with 6 samples.

Results

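The 2 arrays that carry replicate number 1, one from control RNAi and one from Enigma RNAi, were compared with the 4 arrays numbered 2 or 3, out of 6 Affymetrix arrays in all. The arrays were grouped by the number in their sample titles; that the comparison was made, and its gene lists, followed earlier results of these data. All arrays held RNA of Kc-167, an established embryonic Drosophila line with haemocyte-like features, grown in suspension. The 3 control arrays came from cells given double-stranded RNA against beta-lactamase, a bacterial enzyme, and the 3 Enigma arrays from cells given double-stranded RNA against Enigma (Egm), a gene of the acyl-CoA dehydrogenase family. Both treatments shared 20 µg of double-stranded RNA, 1 hour in M3 medium without serum, addition of serum, harvest on day 5 and 8 µg of total RNA in the labelling reaction. No label says whether arrays of 1 number shared a culture, a day or a labelling, so "array 1" below means only the number. P-values therefore reflect spread that may be purely technical, and a single cell line was used throughout.

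Glycolysis breaks glucose down to pyruvate, and phosphofructokinase commits sugar to that route. Glycogen is built from glucose-1-phosphate by glycogenin, glycogen synthase and the branching enzyme, and is released again by glycogen phosphorylase, while phosphoglucomutase links glucose-1-phosphate to glycolysis. The respiratory complexes of mitochondria oxidise the products of sugar, fat and amino acids. Drosophila haemocytes, the blood cells, secrete collagen IV, laminins and other proteins of the basement membrane.

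The arrays numbered 1 differed from the others at 318 of 6975 tested probe sets, which is 4.56% (183 higher, 2.62%; 135 lower, 1.94%), at an adjusted p under 0.05 in limma with treatment in the model, and at 1499 before adjustment. Among the 5757 genes that these probe sets represent, 147 were higher (2.55%) and 103 lower (1.79%). When arrays of 1 number were allowed to share variation, by a random block, 41 probe sets passed (0.588%; 14 higher, 0.201%, and 27 lower, 0.387%). These stood for 33 genes (0.573%), 12 higher (0.208%) and 21 lower (0.365%). The block does not settle what the numbers share, since both arrays numbered 1 form 1 block and still count as 2 arrays in the fit. If a number marks a shared culture or batch, 1 such unit is compared with 2, and its effect cannot be told apart from that of the number. Without control array 1, which leaves a single array numbered 1 that is assumed to vary like the others, 0 probe sets passed in limma, with 682 before adjustment. The count was 4 without Enigma array 1, 45 without Enigma array 2 and 6 without Enigma array 3, and it was 246 and 344 without control arrays 2 and 3. All 318 kept their direction when any 1 array was left out, which their selection on the same arrays largely fixes. Values below are the deposited GCRMA values (log2), differences are array 1 minus arrays 2 and 3 with their standard error, and "blocked adjusted p" is the one with the random block.

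Enigma itself checked the labels of the treatment. Egm measured 6.00, 6.41 and 6.71 on control arrays 1, 2 and 3, and 3.24, 3.51 and 4.21 on Enigma arrays 1, 2 and 3. The 2 treatments did not overlap on any number. The arrays numbered 1 had the lowest value in each treatment, but their difference of -0.59 ± 0.21 did not pass (adjusted p = 0.18).

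The difference is given for each treatment. All 318 probe sets that passed had the same direction in control RNAi and in Enigma RNAi, and on 314 of them both arrays numbered 1 lay outside the range of the other 4. Passing the test on the mean of both treatments largely fixes these counts, so they are a description. Across the 6975 tested probe sets the control difference and the Enigma difference correlated at r = 0.80, a description over probe sets in which the 2 axes share no array. Taken in the same way for number 2 and for number 3, each against the remaining numbers, r was 0.64 and 0.65. The test of whether the difference varied with treatment passed at 0 probe sets in limma, with 38 at p under 0.05 before adjustment; with 6 arrays this does not show that the treatments shared the same difference.

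**Figure D1:**
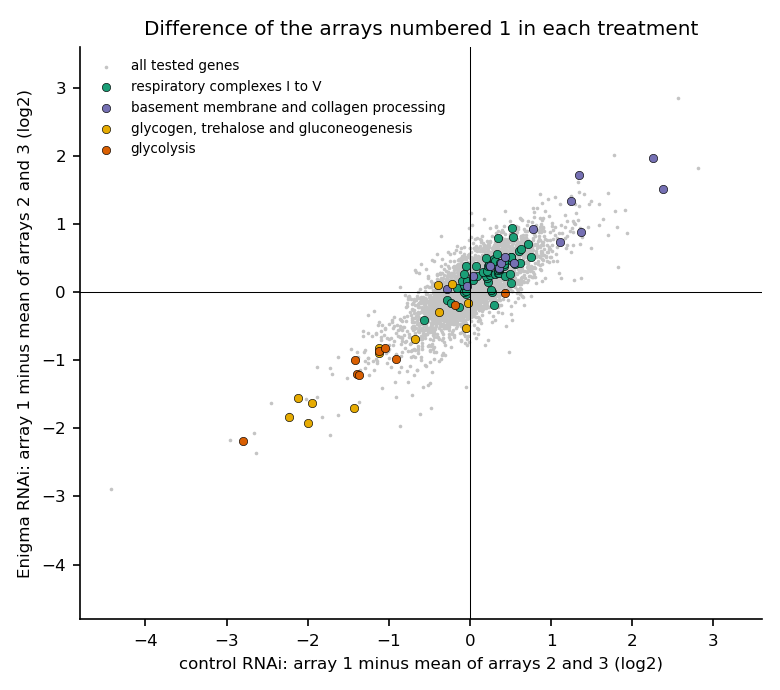
Each point is 1 of the 5757 tested genes, placed by the log2 difference of array 1 from the mean of arrays 2 and 3 in control RNAi (horizontal axis) and in Enigma RNAi (vertical axis), with 4 gene lists in colour. The point at the lower left is GstE9, at -4.43 and -2.89, and Pfk and Col4a1 lie on the same diagonal at -2.80 and -2.19 and at 2.25 and 1.97.

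Glycolysis genes were lower on the arrays numbered 1. Of 14 listed genes, 10 were on the array and 9 passed the filter on low values, and 6 of these 9 were lower and 0 higher after adjustment, where 1.79% of all genes were lower. With the block 4 of the 9 were lower. The median difference of the 9 was -0.99, beside -0.02 over all genes tested, and it was -1.12 in control RNAi and -0.98 in Enigma RNAi. In 7 of the 9 both arrays numbered 1 lay below the other 4, which held for 21.6% of all genes.

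Pfk, phosphofructokinase, measured 6.09 and 6.70 on control and Enigma array 1, 8.86 and 8.91 on control arrays 2 and 3, and 8.71 and 9.06 on Enigma arrays 2 and 3. Both arrays numbered 1 thus stood well below the other 4, which lay close together. The difference of -2.49 ± 0.18 is 5.63-fold lower (adjusted p = 0.0066, blocked adjusted p = 0.0219). It was one of 4 probe sets that still passed when Enigma array 1 was left out.

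The enzymes of the lower part of the pathway were lower by a smaller amount. Pgk, phosphoglycerate kinase, measured 8.11 and 8.17 on the arrays numbered 1 and 9.37, 9.59, 9.31 and 9.45 on control arrays 2 and 3 and Enigma arrays 2 and 3. The 2 groups were more than a log2 unit apart, at -1.29 ± 0.12 (adjusted p = 0.0138, blocked adjusted p = 0.04). Pglym78, phosphoglycerate mutase, measured 8.29 and 8.67 against 9.84, 9.54, 9.89 and 9.86, in the same order of arrays. Its difference was -1.30 ± 0.13 (adjusted p = 0.0138, blocked adjusted p = 0.0485), and the groups did not overlap. Gapdh1, glyceraldehyde-3-phosphate dehydrogenase, measured 10.08 and 10.11 against 11.02, 10.95, 11.06 and 11.13. It was lower by 0.95 on the log2 scale, with nearly equal values inside each group (adjusted p = 0.0143, blocked adjusted p = 0.0485). The 3 Affymetrix control probe sets for GAPDH, which took no part in the test, were lower too, by 0.94, 1.05 and 1.09 from the 3' end through the 5' end to the middle, whereas the actin and eIF-4a control probe sets lay between -0.10 and 0.15.

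Ald1, aldolase, was lower at -1.21 ± 0.13 (adjusted p = 0.0149, blocked adjusted p = 0.0522), and Eno, enolase, at -0.93 ± 0.12 (adjusted p = 0.0185, blocked adjusted p = 0.068). Both missed the threshold with the block, although their groups did not overlap. Pgi, glucose-6-phosphate isomerase, had both arrays numbered 1 below the rest, but its difference of -0.99 ± 0.20 did not pass (adjusted p = 0.0525). The remaining members overlapped. Hex-A, a hexokinase that opens the pathway, measured 8.52 and 8.53 against 8.89, 8.50, 9.03 and 8.41, a difference of -0.19 ± 0.21 (adjusted p = 0.616). Gpdh1, glycerol-3-phosphate dehydrogenase, which leads off a side branch, differed by 0.21 ± 0.14 (adjusted p = 0.438), and by -0.01 without control array 1.

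**Figure D2:**
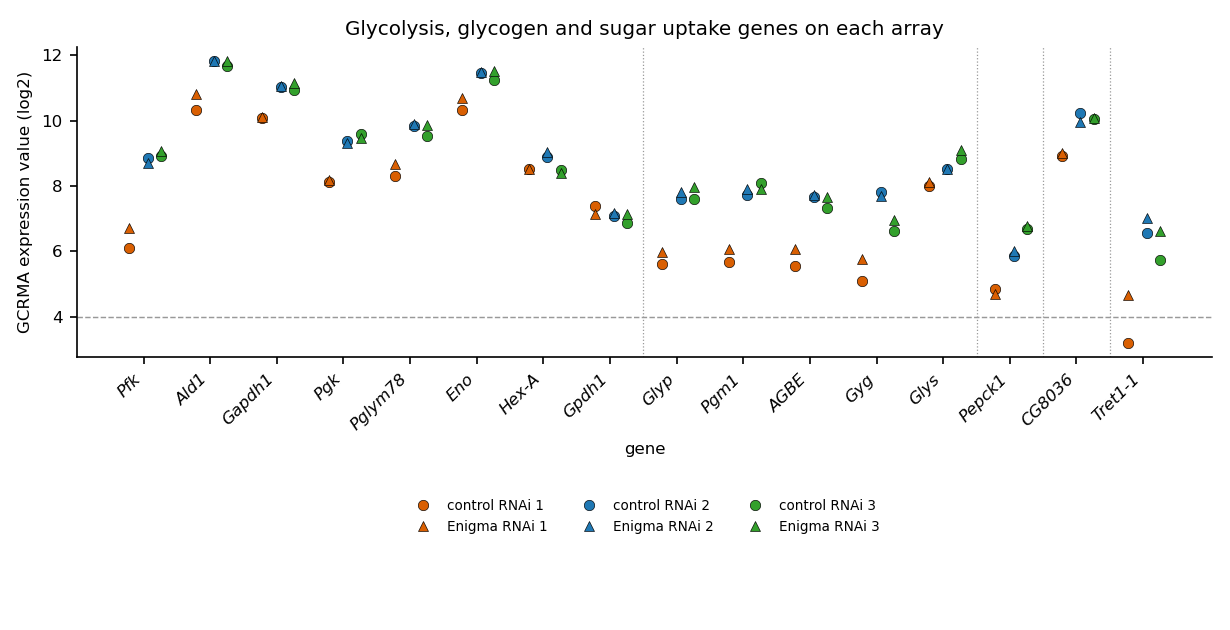
Expression values (log2, vertical axis) on each of the 6 arrays for 16 genes of glycolysis, glycogen and gluconeogenesis, the pentose phosphate pathway and sugar uptake, with circles for control RNAi, triangles for Enigma RNAi, orange for number 1, blue for 2 and green for 3, dotted lines between the gene groups and a dashed line at the filter value of 4. The orange points lie below all others from Pfk to Eno and from Glyp to Tret1-1, whereas Hex-A and Gpdh1 overlap.

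Genes of glycogen turnover were lower as well, on the side of synthesis and of breakdown. Of the 29 listed genes for glycogen, trehalose and gluconeogenesis, 28 were on the array and 13 passed the filter. All 13 had a lower mean on the arrays numbered 1, of which 6 passed the test (1.79% of all genes were lower) and 3 with the block, while 0 were higher. Their median was -0.97, with -1.12 in control RNAi and -0.82 in Enigma RNAi. In 10 of the 13 the arrays numbered 1 lay below the other 4, which held for 21.6% of all genes.

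Glyp, glycogen phosphorylase, which releases glucose-1-phosphate, measured 5.60 and 5.97 on control and Enigma array 1, 7.59 and 7.61 on control arrays 2 and 3, and 7.80 and 7.97 on Enigma arrays 2 and 3. The difference was -1.96 ± 0.10 and 3.88-fold (adjusted p = 0.00335, blocked adjusted p = 0.0106). In each treatment array 1 stood alone and arrays 2 and 3 differed by little. Pgm1, phosphoglucomutase, measured 5.66 and 6.08 against 7.72, 8.07, 7.92 and 7.90. Its difference of -2.03 ± 0.15 was the largest of this list (adjusted p = 0.00695, blocked adjusted p = 0.0239). On the side of synthesis, AGBE, the branching enzyme, measured 5.54 and 6.06 against 7.67, 7.32, 7.73 and 7.65. It was lower by 1.79 on the log2 scale (adjusted p = 0.00882, blocked adjusted p = 0.0257), again without overlap.

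Gyg, glycogenin, which primes a new glycogen molecule, measured 5.09 and 5.76 on the arrays numbered 1, 7.82 and 7.68 on the arrays numbered 2, and 6.60 and 6.95 on those numbered 3. The 3 numbers were thus at 3 levels, and the difference of -1.84 ± 0.38 did not pass (adjusted p = 0.053). Glys, glycogen synthase, differed by -0.68 ± 0.19 and did not pass either (adjusted p = 0.104), with array 1 of both treatments below the rest. The debranching enzyme gene CG9485 was lower at -0.97 ± 0.18 (adjusted p = 0.0431, blocked adjusted p = 0.102).

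Around these genes, Pepck1, phosphoenolpyruvate carboxykinase of gluconeogenesis, was lower at -1.56 ± 0.30 (adjusted p = 0.0438, blocked adjusted p = 0.0903). It measured 4.84 and 4.69 on the arrays numbered 1, 5.85 and 6.02 on the arrays numbered 2, and 6.69 and 6.76 on those numbered 3, so that arrays 2 and 3 also stood apart from each other. The transcription factor gene sug (sugarbabe), which in Drosophila responds to dietary sugar, was lower at -1.01 ± 0.18 (adjusted p = 0.0374, blocked adjusted p = 0.096). Treh, trehalase, and fbp, fructose-1,6-bisphosphatase, had both arrays numbered 1 below the rest but did not pass, at -0.33 (adjusted p = 0.122) and -0.28 (adjusted p = 0.391).

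The pentose phosphate pathway turns glucose-6-phosphate into ribose and reducing power. Its list here also held Men and Idh, which make reducing power outside that pathway. Of the 7 tested genes of this list 2 were lower (1.79% of all genes were lower) and 0 higher, and 0 passed with the block. The median of the list was -0.34, and -0.21 without control array 1, and both are the values of Idh. The 2 lower genes encode enzymes of the non-oxidative branch. CG8036, a transketolase gene, measured 8.93 and 9.02 on the arrays numbered 1 and 10.22, 10.04, 9.96 and 10.09 on control arrays 2 and 3 and Enigma arrays 2 and 3. Its difference was -1.10 ± 0.12 (adjusted p = 0.0143, blocked adjusted p = 0.0511). Taldo, transaldolase, was lower at -0.69 ± 0.13 (adjusted p = 0.0454, blocked adjusted p = 0.132). Men, malic enzyme, and Idh, the NADP-dependent isocitrate dehydrogenase, did not pass, at -0.60 (adjusted p = 0.0814) and -0.34 (adjusted p = 0.156).

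Of 22 sugar transporter genes on the array, 5 passed the filter, and 1 of these was lower (1.79% of all genes were lower). Tret1-1, a trehalose transporter, measured 3.20 and 4.65 on control and Enigma array 1, 6.56 and 5.74 on control arrays 2 and 3, and 7.03 and 6.62 on Enigma arrays 2 and 3. Control array 1 was below the filter value of 4 and Enigma array 1 just above it. The difference was -2.56 ± 0.29 (adjusted p = 0.0149, blocked adjusted p = 0.0485), and -2.16 when values under 4 were set to 4. A second probe set of Tret1-1 differed by -0.99, also without overlap, and did not pass (adjusted p = 0.167). The other 4 transporters overlapped between the groups, and the median of the 5 was -0.18, or -0.32 without control array 1 and -0.11 without Enigma array 1.

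Other transporters moved in both directions. Among 31 tested genes for ion, phosphate, organic and ABC transporters, 3 were higher (2.55% of all genes were higher) and 1 lower (1.79%), with a median of 0.09. MFS14, of the major facilitator family, measured 9.51 and 9.41 on the arrays numbered 1, 6.74 and 7.15 on control arrays 2 and 3, and 6.25 and 6.86 on Enigma arrays 2 and 3. This was the largest higher value among all tested genes, at 2.71 ± 0.21 and 6.55-fold (adjusted p = 0.00792, blocked adjusted p = 0.011). MFS3, of the same family, went the other way, with 5.72 and 5.98 against 7.56, 8.15, 7.32 and 7.68 and a difference of -1.83 ± 0.23 (adjusted p = 0.0185, blocked adjusted p = 0.0522).

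MRP, an ABC transporter gene of the multidrug resistance protein group, measured 11.17 and 11.37 on the arrays numbered 1 and 10.26, 9.38, 10.23 and 9.99 on the others. It was higher by 1.31 ± 0.24 (adjusted p = 0.0431, blocked adjusted p = 0.102). Orct2, an organic cation transporter gene, measured 12.35 and 11.89 against 11.10, 11.69, 10.47 and 10.58, with Enigma array 1 only a little above control array 3. Its difference was 1.16 ± 0.20 (adjusted p = 0.0353, blocked adjusted p = 0.102). Its relative Orct differed by 1.01 ± 0.22 and did not pass (adjusted p = 0.0555), and neither did MFS16, at 0.72 (adjusted p = 0.0703). Of 15 amino acid and monocarboxylate transporters, 1 was higher (2.55% of all genes were higher) and 0 lower. This was mnd (minidiscs), an amino acid transporter gene, at 7.81 and 7.46 against 6.72, 6.36, 6.65 and 6.89, a difference of 0.98 ± 0.18 (adjusted p = 0.0432, blocked adjusted p = 0.167).

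The nuclear-encoded subunits of respiratory complexes I to V had slightly higher values on the arrays numbered 1. Of 92 listed genes, 70 were on the array and 58 were tested. The mean was higher for 50 of the 58, and in 34 both arrays numbered 1 lay above the other 4, which held for 18.2% of all genes. In 4 they lay below, which held for 21.6% of all genes. Second probe sets of ox, ND-MNLL and ATPsynC, not counted here, did not show the rise, at -0.32, -0.17 and 0.0064. Only 3 of the 58 passed the test (2.55% of all genes were higher), and 0 with the block. The median difference was 0.31, with 0.29 in control RNAi and 0.30 in Enigma RNAi, beside -0.02 over all genes. It was 0.32 against the arrays numbered 2 and 0.26 against those numbered 3, while arrays 2 and 3 differed from each other by a median of -0.12.

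The 3 genes that passed belong to complexes IV and V. The complex IV subunit gene COX5A measured 10.75 and 10.49 on control and Enigma array 1, 10.10 and 10.18 on control arrays 2 and 3, and 9.79 and 9.97 on Enigma arrays 2 and 3. It was higher by 0.61 ± 0.11 (adjusted p = 0.0375, blocked adjusted p = 0.119). Another complex IV subunit gene, levy, was higher by 0.51 ± 0.10 (adjusted p = 0.0488, blocked adjusted p = 0.166). The ATP synthase subunit gene sun (stunted) measured 9.74 and 9.65 against 9.0, 9.03, 8.89 and 9.0. Its difference was 0.71 ± 0.10 (adjusted p = 0.0239, blocked adjusted p = 0.0818), with all 4 other arrays close together.

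By complex, the median difference was 0.26 over 25 genes of complex I, -0.01 over 3 genes of complex II, 0.34 over 6 genes of complex III, 0.33 over 10 genes of complex IV and 0.32 over 14 genes of complex V. In complex I the mean was higher for 22 of 25 genes and 0 passed. The complex I subunit gene with the largest difference was ND-B14.7, at 0.73 ± 0.16 (adjusted p = 0.0555). SdhB, the iron-sulfur subunit of complex II, was on the other side of 0 at -0.49 ± 0.11 and did not pass (adjusted p = 0.0577). COX5B, of complex IV, differed by -0.18 (adjusted p = 0.357).

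Around respiration, 19 genes of the TCA cycle and pyruvate dehydrogenase had a median of 0.03, and 1 was lower (1.79% of all genes were lower). This was Mdh1, the cytosolic malate dehydrogenase, at -0.75 ± 0.13 (adjusted p = 0.0375, blocked adjusted p = 0.102). None of 64 mitochondrial ribosomal protein genes passed, with a median of 0.02, and neither did any of 13 genes for fatty acid beta-oxidation, with a median of -0.08. Values from different probe sets carry no common scale, so levels are not compared between genes.

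**Figure D3:**
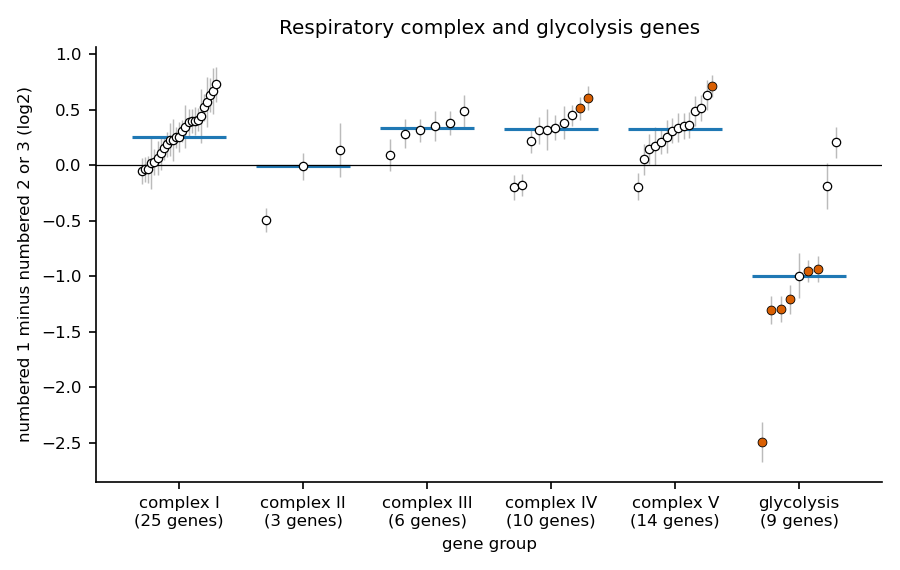
Difference of the arrays numbered 1 from those numbered 2 or 3 (log2, vertical axis, bars ± SE from limma) for each tested subunit gene of respiratory complexes I to V and each tested glycolysis gene, sorted within a group, with filled points for genes that passed and blue lines at the group median. Most subunit genes lie between 0 and 0.73, and 8 of the 9 glycolysis genes lie below 0.

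Genes of the basement membrane were higher on the arrays numbered 1. Of 26 listed genes 23 were on the array and 15 were tested, and 6 of the 15 were higher and 0 lower, where 2.55% of all genes were higher. With the block 1 of the 15 was higher. The mean was higher for 14 of the 15 and in 11 the arrays numbered 1 lay above the other 4, which held for 18.2% of all genes. The median was 0.49, with 0.55 in control RNAi and 0.51 in Enigma RNAi, and 0.85 without the arrays numbered 2.

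Both chains of collagen IV were among the 6. Col4a1 measured 9.78 and 9.52 on control and Enigma array 1, 7.65 and 7.41 on control arrays 2 and 3, and 7.59 and 7.53 on Enigma arrays 2 and 3. The difference of 2.11 ± 0.13 is 4.31-fold (adjusted p = 0.00335, blocked adjusted p = 0.011), and the 4 other arrays spanned under 0.3 log2 units. Viking, vkg, the partner chain, measured 9.28 and 9.0 against 7.27, 6.53, 7.62 and 7.36. It was higher by 1.94 ± 0.28 (adjusted p = 0.0246, blocked adjusted p = 0.0817), with more spread among the other 4 arrays.

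The remaining 4 bind or modify the collagen network or belong to the laminins. SPARC, a collagen-binding glycoprotein, measured 11.64 and 11.33 against 10.67, 10.12, 10.11 and 9.88, a difference of 1.29 ± 0.17 (adjusted p = 0.0226, blocked adjusted p = 0.053). Glt (glutactin), a basement membrane glycoprotein, was higher by 1.53 ± 0.26 (adjusted p = 0.0364, blocked adjusted p = 0.096). Pxn, peroxidasin, which cross-links collagen IV, measured 6.47 and 5.94 against 5.10, 5.10, 5.10 and 5.01, a difference of 1.13 ± 0.14 (adjusted p = 0.0169, blocked adjusted p = 0.0699). All 3 had both arrays numbered 1 above the rest. LanB1, the laminin beta chain, was higher by 0.86 ± 0.10 (adjusted p = 0.0161, blocked adjusted p = 0.0582).

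The other laminin chains and the enzymes of collagen processing did not pass. LanA, an alpha chain, differed by 0.36 ± 0.13 (adjusted p = 0.175) and LanB2, the gamma chain, by 0.32 ± 0.12 (adjusted p = 0.196). Ppn, papilin, differed by 0.92 ± 0.32 (adjusted p = 0.167). PH4alphaEFB, a prolyl hydroxylase of collagen, differed by 0.40 ± 0.10 (adjusted p = 0.0708), and Plod, a lysyl hydroxylase, by 0.14 ± 0.13 with overlapping groups (adjusted p = 0.556). Among 20 genes for integrins, adhesion and actin 0 passed, with a median of 0.01.

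**Figure D4:**
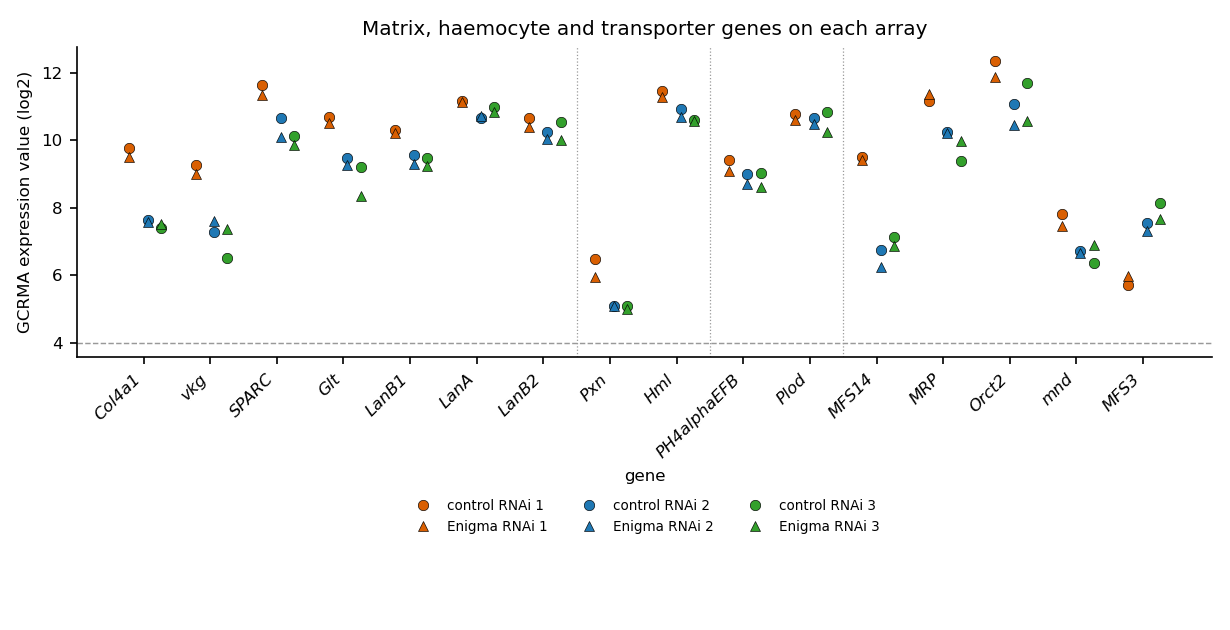
Expression values (log2, vertical axis) on each of the 6 arrays for 16 genes of the basement membrane, haemocytes, collagen processing and transport, with circles for control RNAi, triangles for Enigma RNAi, orange for number 1, blue for 2 and green for 3, dotted lines between the gene groups and a dashed line at the filter value of 4. The orange points of Col4a1, vkg, MFS14 and Pxn lie above all others, those of MFS3 lie below, and LanB2 and Plod overlap.

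Several of these genes are also markers of plasmatocytes, the phagocytic haemocytes. Of 14 plasmatocyte markers on the array 10 were tested, 4 were higher (2.55% of all genes were higher) and 0 lower, and 1 was higher with the block. In 9 the arrays numbered 1 lay above the rest, which held for 18.2% of all genes, and 6 of the 10 did not pass. In the tenth, NimB5, they lay below, at 4.22 and 4.21 against 4.23 to 4.25, close to the filter value, a difference of -0.02 that turned to 0.08 with quantile normalization or cyclic loess. The 4 were Col4a1, vkg, Pxn and Hml (hemolectin), a secreted haemocyte protein, which measured 11.48 and 11.28 against 10.93, 10.61, 10.70 and 10.59 (difference 0.67 ± 0.13, adjusted p = 0.0438, blocked adjusted p = 0.13). The summed level of the 14 markers, as log2 of the summed linear values, was 13.27 and 13.48 on the arrays numbered 1 and between 12.08 and 12.61 on the others. This sum is carried by the brightest probe sets, Nplp2 and Hml, of which Nplp2 did not pass, and it compares arrays, not genes. The defining receptors NimC1 and crq stayed below the filter value of 4 on every array. In these bulk samples, fewer or more cells of a type and less or more RNA per cell cannot be told apart.

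Apart from Hml, the markers that do not belong to the matrix did not pass. Nplp2 measured 11.83 and 11.59 on the arrays numbered 1, 10.82 and 10.71 on those numbered 2, and 9.01 and 10.06 on those numbered 3. Its difference of 1.56 ± 0.50 did not pass (adjusted p = 0.144). The receptor gene Pvr differed by 0.71 (adjusted p = 0.0504), the GATA factor gene srp by 0.71 (adjusted p = 0.141) and the engulfment receptor gene drpr by 0.12 (adjusted p = 0.523).

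Of the 3 tested crystal cell markers, 1 was lower (1.79% of all genes were lower). This was fok, which measured 8.94 and 8.88 on the arrays numbered 1, 10.69 and 11.23 on control arrays 2 and 3, and 10.41 and 10.46 on Enigma arrays 2 and 3. The difference was -1.79 ± 0.19 (adjusted p = 0.0143, blocked adjusted p = 0.0485). It was placed in this list as a crystal cell marker, and its place there is uncertain. The summed level of the 6 markers on the array, 9.20 to 9.23 on the arrays numbered 1 and 10.55 to 11.30 on the others, was set mostly by fok. The other tested markers overlapped over both treatments, with Naprt at 5.86 and 6.12 against 6.07 to 6.30 and lz at 4.06 and 4.0 against 4.02 to 4.21. Within each treatment array 1 was the lowest for both, but neither passed and lz lay near the filter value of 4. The call is thus that of 1 gene, and these markers do not show whether the class differed. The prophenoloxidase genes PPO1 and PPO2, which define crystal cells, were below 4 on every array, as was the lamellocyte marker PPO3. None of the markers tested for lamellocytes, fat body, muscle, neurons, glia, germline or imaginal epithelium passed, and 0 of 7 gut markers reached the filter. The part of other cells in the differences was not tested.

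Detoxification genes held the largest difference among all tested genes. GstE9, a glutathione S-transferase, measured 4.85 on control array 1 and 6.75 on Enigma array 1, against 8.98 and 9.58 on control arrays 2 and 3 and 9.26 and 10.02 on Enigma arrays 2 and 3. The control difference of -4.43 was larger than the Enigma difference of -2.89, but no variation with treatment passed. Together they gave -3.66 ± 0.40, or 12.6-fold lower (adjusted p = 0.0149, blocked adjusted p = 0.0485). Of 29 tested glutathione S-transferases, 3 were lower (1.79% of all genes were lower) and 1 higher (2.55%), with a median of -0.15. The other lower ones were GstE8 at -1.25 ± 0.19 (adjusted p = 0.0292) and GstT4 at -0.97 ± 0.16 (adjusted p = 0.0317). GstS1 was higher at 0.90 ± 0.17 (adjusted p = 0.0431), and these 3 had no call under the block. GstS1 was above the filter value of 4 only on the arrays numbered 1 and on Enigma array 2. Its place in the test thus depended on the arrays numbered 1 being high. Its difference was 0.67 when values under 4 were set to 4.

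Among 29 cytochrome P450s and UDP-glycosyltransferases, 1 was lower (1.79% of all genes were lower) and 1 higher (2.55%). These counts are near the shares of all genes, so the calls describe single genes and not the list. Cyp4p1, a cytochrome P450, measured 4.76 and 6.49 on control and Enigma array 1, 7.62 and 7.24 on control arrays 2 and 3, and 8.16 and 8.94 on Enigma arrays 2 and 3. Within each treatment array 1 was the lowest, and the Enigma arrays were above the control arrays of the same number. The difference was -2.37 ± 0.26 (adjusted p = 0.0149, blocked adjusted p = 0.0579). Ugt35C1, a UDP-glycosyltransferase, was higher by 1.57 ± 0.31 (adjusted p = 0.0491, blocked adjusted p = 0.115). Irc, the immune-regulated catalase, was lower by 1.42 on the log2 scale (adjusted p = 0.0239, blocked adjusted p = 0.0847). It was the single gene called among 5 tested antimicrobial peptide and peptidoglycan recognition genes, the list it was placed in (1.79% of all genes were lower).

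In the TNF and JNK pathway, the ligand and a receptor were higher and a target gene was lower. egr (eiger), the Drosophila TNF, measured 6.98 and 6.38 on control and Enigma array 1, 4.34 and 4.01 on control arrays 2 and 3, and 4.96 and 4.17 on Enigma arrays 2 and 3. The 4 other arrays lay near the filter value, and the difference was 2.31 ± 0.30 (adjusted p = 0.0205, blocked adjusted p = 0.0642). wgn (wengen), a TNF receptor gene, measured 6.76 and 6.06 against 5.59, 5.69, 4.79 and 4.73. It was higher by 1.21 ± 0.10 (adjusted p = 0.0121, blocked adjusted p = 0.0466), and lower in each Enigma array than in the control array of the same number. puc (puckered), a phosphatase gene that is transcribed in response to JNK and limits it, measured 6.34 and 6.78 against 7.39, 7.34, 7.90 and 7.74. Its difference was -1.03 ± 0.10 (adjusted p = 0.0141, blocked adjusted p = 0.0485). These 3 were the genes called among 23 tested for Toll, Imd, JAK-STAT and JNK signalling, whose median was -0.10. Over all genes 2.55% were higher and 1.79% lower.

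Among 42 genes of the lysosome, V-ATPase and autophagy, 3 were higher (2.55% of all genes were higher) and 2 lower (1.79%), and 0 with the block. Subunits of the V-ATPase, the proton pump of the lysosome, were found on both sides. Vha100-2 was lower at -1.29 ± 0.22 (adjusted p = 0.0359) and Vha44 at -0.98 ± 0.11 (adjusted p = 0.0149), whereas VhaM9.7-c was higher at 0.88 ± 0.15 (adjusted p = 0.0379). The protease gene CtsL1, cathepsin L, was higher at 0.85 ± 0.15 (adjusted p = 0.0385), and Npc2a, a sterol-binding lysosomal protein, at 0.65 ± 0.12 (adjusted p = 0.0435).

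Among 14 genes tested for metal handling 2 were lower, where 1.79% of all genes were lower. These were Irp-1B, an iron regulatory protein, at -0.91 ± 0.17 (adjusted p = 0.043, blocked adjusted p = 0.0989), and Alas, which catalyses the first step of haem synthesis, at -0.77 ± 0.13 (adjusted p = 0.0353, blocked adjusted p = 0.132). Coprox, a later enzyme of haem synthesis that was not in that list and was picked after its values were seen, measured 8.34 and 8.27 against 9.31, 9.45, 9.16 and 9.19 (difference -0.97 ± 0.10, adjusted p = 0.0144, blocked adjusted p = 0.0485). Single calls in other lists were REPTOR, a transcription factor held back by TOR, higher at 0.90 ± 0.13 (adjusted p = 0.0272), Hsf, the heat shock factor, lower at -0.73 ± 0.12 (adjusted p = 0.0364), and Ero1L, an oxidase of the endoplasmic reticulum, lower at -0.85 ± 0.16 (adjusted p = 0.0438). In the list for amino acid response, serine and one-carbon genes, aay, phosphoserine phosphatase, was higher at 0.55 ± 0.10 (adjusted p = 0.0432) and Gs2, a glutamine synthetase, lower at -0.80 ± 0.11 (adjusted p = 0.0232). None of these 5 passed with the block. REPTOR came from the hypoxia response list, whose median was -0.04 over 8 tested genes. In that list a probe set of Hph that did not stand for the gene went the other way. It was lower by 1.12 without overlap (adjusted p = 0.0149 in limma), and another Hph probe set differed by -0.40 with overlap.

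Growth and division genes gave no call. Of 31 genes for DNA replication and 32 for mitosis 0 passed, with medians of -0.12 (between -0.33 and 0.07 over the settings tried) and -0.08, and the replication list was at -0.25 in control RNAi and 0.02 in Enigma RNAi. The largest difference in the first list was that of PolA1, a DNA polymerase alpha subunit, at -0.79 (adjusted p = 0.0855). None of 35 cytosolic ribosomal protein genes, 27 proteasome genes, 26 aminoacyl-tRNA synthetases, 18 lipid genes, 15 genes of oxidative stress defence, 14 ecdysone response genes or 11 genes of insulin, TOR and FOXO signalling passed in limma. At these 6 arrays a call of 0 does not show that the groups were equal.

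**Figure D5:**
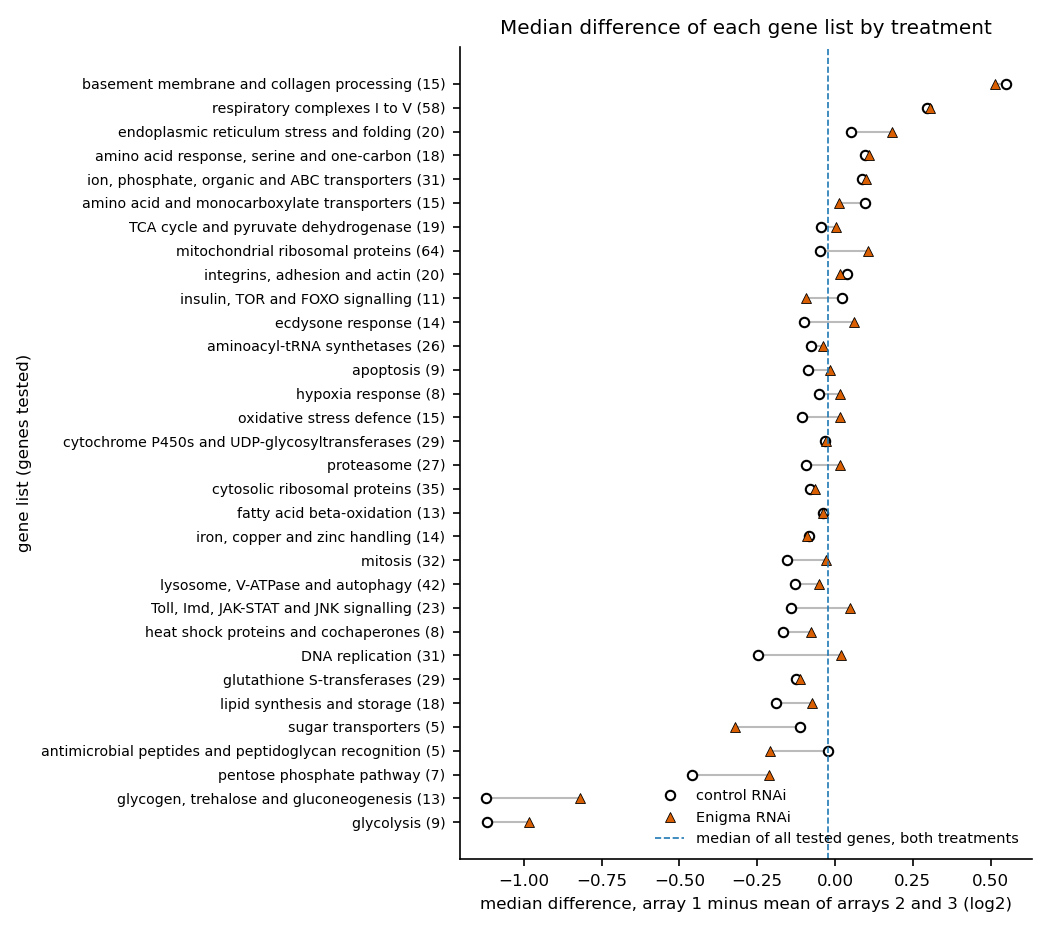
Median log2 difference of array 1 from the mean of arrays 2 and 3 for each of 32 gene lists, as open circles for control RNAi and triangles for Enigma RNAi, with the number of genes tested in brackets and a dashed line at the median of all tested genes. Glycolysis and glycogen genes lie near -1 in both treatments, and basement membrane genes (0.55 and 0.51) and respiratory complexes (0.29 and 0.30) lie highest.

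Further genes were among the 12 largest differences in a direction. Pdcd4, a repressor of translation in animals, measured 8.02 and 7.85 on the arrays numbered 1 and 9.83, 9.86, 9.82 and 9.56 on the others, a difference of -1.83 ± 0.11 (adjusted p = 0.00335, blocked adjusted p = 0.011). Pxt, a haem peroxidase of the cyclooxygenase type, measured 8.85 and 8.68 against 7.07, 7.10, 6.73 and 6.60, a difference of 1.89 ± 0.11 (adjusted p = 0.00335, blocked adjusted p = 0.011). For both genes the spread inside each group was far smaller than the gap. Idgf6, a secreted chitinase-like growth factor, measured 11.59 and 11.23 against 10.29, 9.91, 9.89 and 9.88 (difference 1.42 ± 0.13, adjusted p = 0.0138, blocked adjusted p = 0.0485). H (Hairless), the co-repressor of Notch signalling, was higher by 1.41 ± 0.15 (adjusted p = 0.0144, blocked adjusted p = 0.0485), but a second probe set of H differed by 0.37 with overlap. Gel, gelsolin, an actin-severing protein, was higher by 1.44 (adjusted p = 0.0244), Nepl4, a neprilysin-like protease, by 1.47 (adjusted p = 0.0381), and CG1092 by 1.42 (adjusted p = 0.0226), and these 3 had no call with the block.

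The remaining genes of that set have no role given here. CG6330 was lower by 2.50 on the log2 scale, from 7.97, 7.86, 8.21 and 8.63 on the others to 5.27 and 6.06 (adjusted p = 0.00335, blocked adjusted p = 0.011), and CG13117 by 2.04 (adjusted p = 0.0138, blocked adjusted p = 0.0485). CG34330 was lower by 2.01 (adjusted p = 0.0292, blocked adjusted p = 0.0771). CG13315 was lower by 1.90 (adjusted p = 0.0143, blocked adjusted p = 0.0522), or by 1.18 when values under 4 were set to 4, since both arrays numbered 1 were under 4, at 2.89 and 3.67. CG15771, picked after its values were seen, was lower on a second probe set that did not stand for it, at -2.42 (adjusted p = 0.00208, blocked adjusted p = 0.00493), and -1.21 on the first (adjusted p = 0.0214).

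The arrays numbered 2 and 3 were compared with each other to show how much the remaining numbers differ. In limma with all 3 numbers as levels, 1300 probe sets (18.6%) passed between numbers 1 and 2, 1092 (15.7%) between 1 and 3, and 362 (5.19%) between 2 and 3. The last count fell to 23 with no filter and to 0 with quantile normalization or cyclic loess. These comparisons share arrays, so the counts stand side by side only. The median absolute difference over all tested probe sets was 0.215, 0.173 and 0.176, in the same order, so number 1 and number 3 lay no farther apart in the typical probe set than numbers 2 and 3. In a principal component analysis the first component held 43.8% of the variance and had the arrays numbered 1 at 22.1 (control) and 18.6 (Enigma) and the other 4 between -14.0 and -7.8. The second, with 35.5%, ran from -19.3 on Enigma array 2 to 24.4 on control array 3.

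Arrays 2 and 3 were close for some of the sugar genes and farther apart for others. The difference of number 2 from number 3 was -0.20 for Pfk, -0.10 for Glyp, -0.17 for Pgm1 and -0.18 for Pgk, and 0.15 for Col4a1. Among the sugar genes it was larger for Gyg, at 0.97, Pepck1, at -0.79, Tret1-1, at 0.62, and Hex-A, at 0.51. Pgi and Glys were at -0.47 and -0.45. Of the haemocyte and matrix genes, Nplp2 was at 1.23, Ppn at 0.80 and Tig at 0.72. The median of the basement membrane list was 0.07. With treatment taken out, that list deviated from the mean of all 6 arrays by a median of -0.17 and -0.11 on control and Enigma array 2. On array 3 the deviation was -0.34 and -0.33, and on array 1 it was 0.37 and 0.34.

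The ends of 3 control transcripts gave a measure of RNA quality. The 3' minus 5' log2 value averaged 1.58 for eIF-4a on the 2 arrays numbered 1 and 1.53 ± 0.31 (SD, n = 4) on the others (exact permutation p = 0.933, two-sided). For actin it was 0.68 against 0.76 ± 0.21 (SD, n = 4, exact permutation p = 0.6), and for Gapdh 2.09 against 1.98 ± 0.08 (SD, n = 4, exact permutation p = 0.133). After adjustment over the 3 transcripts the values were 0.933, 0.9 and 0.4, and with 2 arrays against 4 the smallest p this test can give is 0.0667. The part of RNA quality in the differences was not tested further.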

How the data were processed

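The deposited log2 values were made by the authors with GCRMA (background correction, normalization between arrays and summary per probe set), per the submitters' processing notes, with the version not given in the sources used. The log2 scale was taken from that method and from the range of -0.32 to 14.3. Of 14010 probe sets, 44 Affymetrix controls were left out, and 6975 above 4 on at least 3 of 6 arrays were tested. GEO's platform annotation gave 1 gene for 12444, several for 327 and none here for 1239, and 12394 matched RefSeq genes of Release 6 plus ISO1 MT. The array's build is not named, so no coordinates are given. A gene with several probe sets was represented by the one with the highest mean. No symbol was matched for 21 list members.

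Array 1 minus arrays 2 and 3 was fitted with lmFit and eBayes of limma 3.58.1 (R 4.3.3) with treatment as a term, two-sided, with p-values adjusted by Benjamini-Hochberg across the 6975 and a threshold of 0.05; the fit was tested on simulated data. The deviations of same-numbered arrays from their group means correlated at r = 0.80, 0.64 and 0.65, and those of unlike numbers were not compared. These are the same values as the correlations of the control and Enigma differences given above. On the values themselves, control array 2 correlated as closely with Enigma array 3 (r = 0.989) as with Enigma array 2 (r = 0.989). The titles give the numbers but not what they mark. A random block for the number (duplicateCorrelation, correlation 0.42) is given beside the results. Single values of control transcripts had an exact permutation test. The rule named the 12 largest calls in each direction without overlap, up to 4 called members of each of 32 gene lists and 10 marker lists (or the 2 largest differences where none passed) and Egm. This gave 93 genes, and 36 others were picked after their values were seen. The members and lists were chosen with earlier results of these data known. The number of arrays limits the precision.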

Additional observations from a re-analysis of the deposited data

Results flagged for a closer look

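Among the 4 arrays numbered 2 or 3, which mix both treatments, 1 array stood far from the other 3 for 7 of the genes named, by Dixon's ratio of the gap to the range. Chance gives about 1 in 20, or 6.6 of the 132 sets of 4 values looked at. The ratio was 0.953 for Pxn, where Enigma array 3 was low at 5.01. It was 0.917 for Ald1 (control array 3, 11.68), 0.875 for Irc (control array 3, 8.92), 0.859 for Pglym78 (control array 3, 9.54) and 0.839 for tud, a germline marker (control array 3, 7.57). It was 0.908 for Idgf6 (control array 2, 10.29) and 0.862 for Pdcd4 (Enigma array 3, 9.56). Control array 3 was the array apart in 4 of these 7 genes.

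The epithelial polarity gene baz went opposite ways in the 2 treatments. It measured 4.40 on control array 1 against 4.25 and 4.15 on control arrays 2 and 3, and 4.13 on Enigma array 1 against 4.22 and 4.16 on Enigma arrays 2 and 3, so the Enigma difference minus the control difference was -0.254. All 6 values lie near the filter value of 4, and this gene was singled out by the order of its values; a separate test of the difference was not run beyond the fit over all probe sets, in which none passed.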

How the results depend on the processing

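Of 16 alternative settings, all kept the direction of the 318 calls that they tested (239 with a mean log2 of at least 6). The count was 408 with no filter, 342 with a mean of at least 6, 304 with cyclic loess, 282 without the treatment term, 283 with a trended and robust variance and 221 with quantile normalization, where 110 were higher and 111 lower and the share higher fell to 49.8% from 57.5%. With the random replicate block, the pairing of arrays by number, it was 41 (14 higher, 27 lower), and all 41 were among the 318. With array weights it was 1397 (856 higher, 541 lower). Leaving out 1 array or all arrays of number 2 or 3 gave 0 to 1475 (higher 0 to 907, lower 0 to 568), with 1222 without number 2 and 1475 without number 3. The cause was not tested. Variation with treatment passed at 0 probe sets in each of 4 settings run. The 2 minus 3 count of 362 was 23 with no filter and 0 with quantile normalization or cyclic loess, and the 1 minus 2 count of 1300 was 860 with quantile normalization. List medians kept their sign throughout for glycolysis (-1.17 to -0.94), glycogen and related genes (-1.17 to -0.77), respiratory complexes (0.24 to 0.32) and the basement membrane (0.43 to 0.85). Medians near 0 changed sign for the TCA cycle (-0.08 to 0.05, in 6 settings), mitochondrial ribosomal proteins (-0.07 to 0.12, in 5), beta-oxidation (-0.21 to 0.16, in 2), DNA replication (-0.33 to 0.07, in 2), ion and related transporters (-0.0051 to 0.29, in 1), amino acid transporters (-0.10 to 0.22, in 4), integrins and adhesion (-0.05 to 0.06, in 2) and Toll to JNK signalling (-0.14 to 0.05, in 1). The same held for insulin, TOR and FOXO signalling (-0.09 to 0.03, in 8) and ecdysone response (-0.10 to 0.20, in 7). It held in 3 settings for hypoxia response, the proteasome and all tested genes. It held in 2 for oxidative stress defence and for cytochrome P450s and UDP-glycosyltransferases. It held in 1 for amino acid response, aminoacyl-tRNA synthetase, heat shock, antimicrobial peptide and metal handling genes. Small values changed sign for Hex-A without replicate 2 (0.0685, leave-out range -0.442 to 0.0685), Yp3, lz and NimB5 with quantile normalization (0.0103, 0.00266 and 0.0795) and cyclic loess (0.0116, 0.00702 and 0.0828), baz without control array 1 (-0.0565 to 0.197 over the arrays left out), brp without replicate 3 (-0.0754 to 0.451) and Gpdh1 without control array 1 (-0.0107 to 0.428). So did the 3' minus 5' difference of eIF-4a without control array 2 (-0.0549) or Enigma array 1 (-0.0427), over a range of -0.0549 to 0.190, and of actin without Enigma array 3 (0.000837), over -0.168 to 0.000837. Signal near the filter value of 4 limits Tret1-1, egr, GstS1 and CG13315.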
